A study of Homo sapiens with 5 samples.

Results

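Metallothioneins are small cysteine-rich proteins that bind zinc and copper. Their genes lie side by side on chromosome 16, and they are transcribed in response to metals through MTF1, a zinc-sensing transcription factor that binds metal response elements in their promoters, and to glucocorticoids. The 8 genes described here are MT1A, MT1E, MT1F, MT1G, MT1H, MT1M, MT1X and MT2A, taken by symbol on chromosome 16 from a table of 30476 gene rows. Of these 8, 7 had a row, and MT1M was not analysed here. The family was chosen by measured values, because the read count of MT1E was far lower in EZH2 inhibitor-resistant than in parental cells, so every value that sets resistant against parental cells is given as a description without a test.

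The cells were TOV21G, a cell line of ovarian clear cell carcinoma in which ARID1A, the gene of a SWI/SNF chromatin remodelling subunit, is mutated. RNA-seq was performed on 1 library of parental cells and 4 libraries of EZH2 inhibitor-resistant (EIR) cells, selected in GSK126, an inhibitor of the histone methyltransferase EZH2, at 5, then 10, 15 and 20 uM. The 4 EIR libraries came from clone 3 and clone 4, each grown untreated and with GSK126, at a dose not given in the labels for the treated cultures. All groups carry the ARID1A mutation of the line, each clone is a single selected clone, and the parental cells had not gone through selection. Total estimated read counts ranged from 25479238 to 30764963 per library. PAX8 (3031 to 4491 counts), KRT8 (4331 to 8176) and KRT18 (11896 to 18015) were high in all 5 libraries, while NAPSA, another clear cell marker, had 2 to 53 counts and EPCAM had 398 to 498 counts in parental cells and clone 3 but 0 and 1 in clone 4. Of 7 markers of immune, endothelial and stromal cells, 5 had a row, with at most 91 counts each.

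The coding sequences of the family are alike to varying degrees, which bears on how a read can be assigned to 1 member. The middle coding exon of MT1E is printed here with the same exon of MT2A, MT1F and MT1X, the other members that kept counts in all 5 libraries, and of MT1L, a transcribed pseudogene with 472 to 1313 counts. All are on the plus strand of GRCh37, and capitals mark bases that differ from MT1E. The exon lies at chr16:56660378-56660443 in MT1E, chr16:56642904-56642969 in MT2A, chr16:56652091-56652156 in MT1L, chr16:56692587-56692652 in MT1F and chr16:56717077-56717142 in MT1X.
MT1E: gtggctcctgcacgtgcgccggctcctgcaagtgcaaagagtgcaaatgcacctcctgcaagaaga
MT2A: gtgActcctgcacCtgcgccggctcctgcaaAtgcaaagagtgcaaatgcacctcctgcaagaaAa
MT1L: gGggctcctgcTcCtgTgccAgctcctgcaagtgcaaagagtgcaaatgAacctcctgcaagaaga
MT1F: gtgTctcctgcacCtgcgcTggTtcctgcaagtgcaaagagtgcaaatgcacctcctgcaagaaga
MT1X: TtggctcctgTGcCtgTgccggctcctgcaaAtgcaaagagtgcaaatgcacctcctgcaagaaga
Over these 66 bases MT2A and MT1F differed from MT1E at 4 positions each, and MT1X and MT1L at 6. The exon alone is shorter than a read of 75 bases.

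Over whole transcripts the members were easier to tell apart. MT1E has 704 bases in its 3-exon transcript, which gives 630 windows of 75 bases. Of these windows, 5 (0.79%) were found without mismatch in another metallothionein transcript, namely in the pseudogenes MT1JP and MT1P3, and 103 (16.35%) were found with up to 2 mismatches. In the coding sequence of MT1E, 86 of 112 windows (76.79%) had such a near match, so most windows with a near match were coding. No MT1E window matched MT2A, even with 2 mismatches. With up to 2 mismatches, 69 MT1E windows matched MT1P3, 42 matched MT1JP, 10 matched MT1X, 16 matched MT1L, 25 matched MT1G, 27 matched MT1M and 1 matched MT1F. MT2A and MT1X were closer to each other, since 59 of 327 MT2A windows had a near match in MT1X. MT1X also has 92 windows inside an overlapping gene (ENSG00000259827), and the 112 windows of the annotated MT1L transcript all lie in an overlapping locus record (ENSG00000291105). RSEM, which made the counts, divides reads that match several transcripts by estimation, so counts of single members carry an error of division that the sum of the family largely does not.

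**Figure D1:**
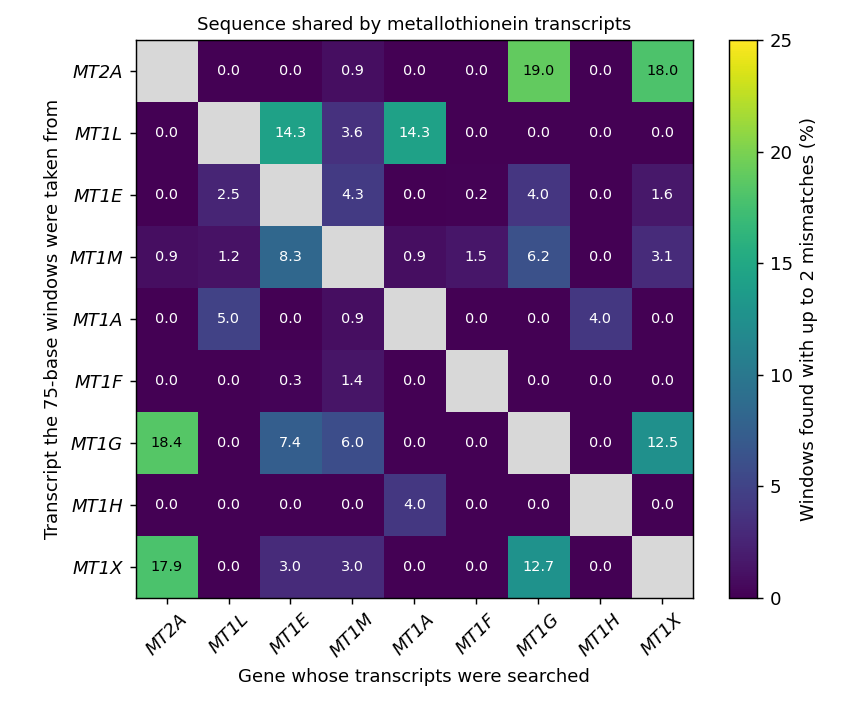
Share of the 75-base windows of each transcript (vertical axis) that were found with up to 2 mismatches in transcripts of another gene of the family (horizontal axis), in percent and coloured from 0 to 25. The MT1E transcript shared 0.0% of its windows with MT2A and 4.3% with MT1M, while MT2A and MT1X shared about 18.0% of theirs with each other. The pseudogenes MT1P3 and MT1JP, which matched 10.95% and 6.67% of the MT1E windows, are not drawn.

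The promoters of MT2A and MT1X are printed because these are the 2 members that all 5 libraries kept at more than 300 counts. RefSeq promoters were matched for MT2A, MT1X and MT1H, and for MT1B and MT4 among other loci of the family. MT1A, MT1E, MT1F, MT1G and MT1M were not matched. Capitals mark metal response element cores, searched on both strands as TGCACNC and TGCGCNC. The 250 bases before each start are shown on the plus strand of GRCh38.p14, at chr16:56608334-56608583 for MT2A and chr16:56682220-56682469 for MT1X.
MT2A: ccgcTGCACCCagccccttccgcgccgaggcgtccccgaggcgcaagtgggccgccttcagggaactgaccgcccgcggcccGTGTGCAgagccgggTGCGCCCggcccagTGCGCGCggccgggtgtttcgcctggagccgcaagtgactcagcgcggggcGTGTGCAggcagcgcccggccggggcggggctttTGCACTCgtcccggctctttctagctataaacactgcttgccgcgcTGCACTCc
MT1X: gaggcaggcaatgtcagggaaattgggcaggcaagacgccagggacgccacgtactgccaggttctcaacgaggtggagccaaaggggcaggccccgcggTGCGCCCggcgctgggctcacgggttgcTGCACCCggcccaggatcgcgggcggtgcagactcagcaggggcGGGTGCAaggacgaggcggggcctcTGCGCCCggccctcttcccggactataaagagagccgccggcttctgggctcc
The promoter windows run 50 bases past the start, and over these 300 bases MT2A held 8 matches, 7 of them in the printed stretch, and MT1X held 4. MT1H, a member near 0 counts in these cells, also held 8. At least 1 match was found in 29.55% of 35116 promoters of that length, at least 4 in 0.601% and at least 8 in 0.02%. These matches are letters in a window and no measurement of binding.

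Among the loci of the family with counts in every EIR library, MT1E showed the largest mean log2 ratio to parental cells in size. MT2A and MT1X had log2 ratios to parental between -0.79 and 1.07. MT1A had 0 counts in each EIR library, so its log2 ratio of -6.2 is set by the pseudocount of 0.5 and cannot be ranked against MT1E. MT1E (ENSG00000169715, chr16:56659387-56661024, protein-coding) had 2146 counts in parental cells. It had 4 counts in untreated clone 3, 3 in GSK126-treated clone 3, 10 in untreated clone 4 and 2 in GSK126-treated clone 4. All 4 EIR libraries were thus near 0 and far from the parental library, with or without GSK126. In such bulk libraries, fewer expressing cells and less RNA per cell cannot be told apart. After scaling for library size (median-of-ratios factors), the parental level of MT1E was 2161 normalized counts and the mean of the EIR libraries was 4.74 ± 3.68 (SD, n = 4).

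Per library, the MT1E level was 584-fold lower than in parental cells in untreated clone 3 (95% exact counting interval 228 to 2144). The fold was 729 (249 to 3538) in GSK126-treated clone 3, 212.5 (115 to 444) in untreated clone 4 and 1021 (282 to 8440.0) in GSK126-treated clone 4. The 4 intervals overlap, but overlap is no test of a difference between these libraries. The mean log2 ratio to parental cells was -8.91 (SD 0.88 over 4 libraries, pseudocount 0.5), beside a median of -0.08 over the 11564 expressed genes, defined by 100 or more normalized counts on average.

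MT2A, the most abundant metallothionein in most human cells, was by far the highest member here in every library. MT2A (ENSG00000125148, chr16:56642496-56643409) had 12520.0 normalized counts in parental cells, 14074 and 13569 in untreated and GSK126-treated clone 3, and 7264 and 7926 in untreated and GSK126-treated clone 4. Its level was thus close to parental in clone 3 and lower in clone 4. The log2 ratios to parental were 0.17 and 0.12 in clone 3 and -0.79 and -0.66 in clone 4.

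MT1X, a further metal-inducible member, lay above the parental level in clone 3 and close to it in clone 4. MT1X (ENSG00000187193, chr16:56716382-56718108) had 323 normalized counts in parental cells, 677 and 648 in untreated and treated clone 3, and 345 and 377 in untreated and treated clone 4. The mean log2 ratio was 1.03 in clone 3 and 0.16 in clone 4.

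MT1F was lower than in parental cells in all 4 EIR libraries, but to unequal degrees in the clones. MT1F (ENSG00000198417, chr16:56691643-56694610) had 294 normalized counts in parental cells, 117 and 126 in untreated and treated clone 3, and 8.14 and 13.8 in untreated and treated clone 4, where the raw counts were 8 and 13. The mean log2 ratio was -1.28 in clone 3 and -4.73 in clone 4.

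The remaining members were low in parental cells already. MT1A (ENSG00000205362, chr16:56672578-56673999) had 36 counts in parental cells and 0 in each EIR library, which is at least 11.4-fold lower when each EIR library is set at 3 counts. MT1G (ENSG00000125144, chr16:56700642-56701977, the only member on the minus strand) had 5 counts in parental cells and 0, 0, 0 and 1 in EIR cells. MT1H (ENSG00000205358, chr16:56703726-56705041) had 1 count in parental cells and 0 in EIR cells. No fold is given for MT1G and MT1H, whose counts are too few.

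**Figure D2:**
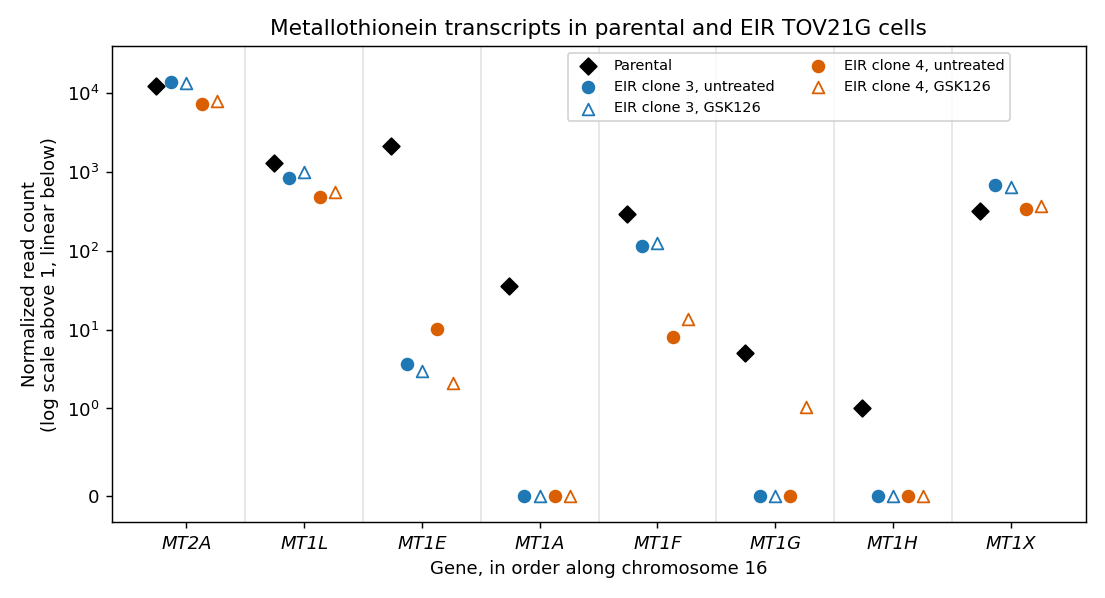
Normalized read counts (vertical axis, logarithmic above 1 and linear below) of 7 metallothionein genes and the pseudogene MT1L in the 5 libraries, in order along chromosome 16. MT1E is at 2161 in the parental library (black diamond) and between 2.12 and 10.2 in the EIR libraries, MT2A is at 7264 to 14074 and MT1X at 345 to 677 in the EIR libraries, and MT1F lies at 117 and 126 in clone 3 (blue) but at 8.14 and 13.8 in clone 4 (orange).

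Of the 13 other metallothionein loci looked for, 3 had a row. The pseudogene MT1L (ENSG00000260549, chr16:56651475-56652592), which lies between MT2A and MT1E, had 1322 normalized counts in parental cells, 835 and 995 in untreated and treated clone 3, and 480.1 and 567 in untreated and treated clone 4. MT1L, next to MT1E on the chromosome, thus remained well above 0, with a mean log2 ratio to parental of -0.94. After centring on genes of like GC content, this mean log2 ratio was -0.48. MT1JP had 3 counts in parental cells and 0 in EIR cells, and MT1B had 1 count in all.

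In all, 5 of the 7 members with a row had at least 10 counts in a library. Among them MT1A passed only through the parental library, and MT1E also through untreated clone 4, with 10 counts. MT1A, MT1E and MT1F (3 of 5) were at least 2-fold lower than parental in all 4 EIR libraries, and 0 were at least 2-fold higher. Among all 18239 genes with 10 counts in a library, 6.21% were lower and 7.7% higher by this rule. The comparison chose the members, and nothing is read from the difference between these shares.

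Per kilobase of median annotated transcript length, the order of the members could be compared within a library. In parental cells the normalized counts per kilobase were 21550.0 for MT2A, 3070.0 for MT1E, 699 for MT1F, 595 for MT1X, 91.6 for MT1A, 12.3 for MT1G and 1.84 for MT1H. MT1E thus ranked next to MT2A in parental cells. In the EIR libraries MT1E had 3.01 to 14.5 normalized counts per kilobase. MT2A had 12500.0 to 24220.0, MT1X 635 to 1245 and MT1F 19.4 to 299, and the ranges of these 4 genes did not overlap. In untreated clone 4, however, MT1E had 10 counts and MT1F had 8, so their order there rests on the transcript lengths. With 1 parental library the neighbours MT1F and MT1X could not be set against a spread between parental libraries.

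The summed counts of the family do not depend on how reads were divided among the members in the sum. The share of a single member does depend on it, and the sum of the members leaves out MT1L and other loci with windows near to MT1E. In parental cells MT1E held 14.1% of the counts of the members (2146 of 15232, 95% Wilson interval 13.6 to 14.6%). In EIR cells it held 0.0249% (0.00968 to 0.064%) in untreated clone 3, 0.0207% (0.00703 to 0.0607%) in treated clone 3, 0.133% (0.0725 to 0.245%) in untreated clone 4 and 0.0254% (0.00698 to 0.0927%) in treated clone 4. The MT2A share was 81.6% in parental cells and 94.6 to 95.3% in the EIR libraries. The MT1X share was 2.11% in parental cells and 4.52 to 4.55% in the EIR libraries.

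**Figure D3:**
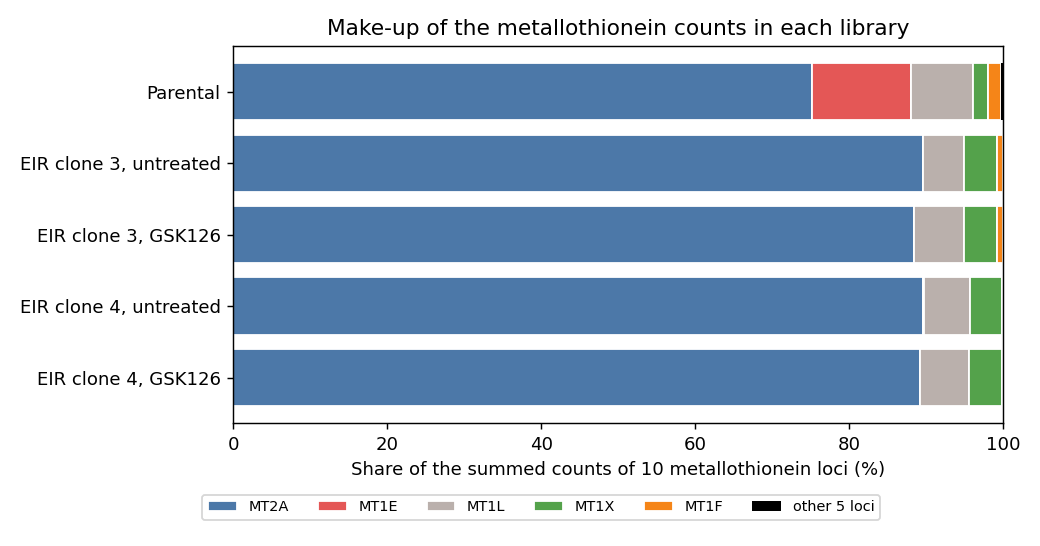
Share of each locus (horizontal axis, percent) in the summed estimated counts of the 10 metallothionein loci with a row, for each library (bars). MT1E makes up 12.97% in the parental library and at most 0.126% in the EIR libraries, where MT2A makes up 88.4 to 89.6%.

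The level of MT1E was 2151 to 2159 normalized counts below parental in the EIR libraries. MT2A lay 1554 and 1049 above parental in untreated and treated clone 3, and 5256 and 4594 below it in untreated and treated clone 4. MT1X lay 353 and 325 above parental in clone 3 and 21.5 and 53.3 above it in clone 4. In clone 4 these MT1X values were the largest excess over parental of any locus with a row. The pseudogene MT1P3 and MT1M, which have near-match windows with MT1E, were not analysed here, and whether reads were divided differently between loci was not tested. The sum over the 10 loci without MT1E was 14505 normalized counts in parental cells, 15702 and 15339 in clone 3 and 8097 and 8885 in clone 4, untreated and treated in each case.

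Set against MT2A within the same library, which cancels scaling, MT1X was nearly constant among EIR libraries. Of 330 MT1X windows, 59 had a near match in MT2A, and whether shared reads enter the proportion of MT1X to MT2A was not tested. The MT1X count was 2.58% of the MT2A count in parental cells and 4.81, 4.78, 4.75 and 4.75% in untreated clone 3, treated clone 3, untreated clone 4 and treated clone 4. MT1L was at 10.6% of MT2A in parental cells and 5.93, 7.33, 6.61 and 7.15% in the same EIR order. MT1F did not keep such a proportion, at 2.35% in parental cells, 0.83 and 0.93% in clone 3 and 0.112 and 0.173% in clone 4. MT1E was at 17.3% in parental cells and between 0.0219 and 0.14% in EIR cells.

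The genes on either side of the cluster did not show the low levels of MT1E. Within 500 kb, 8 annotated genes were expressed by the same definition. Of these, 0 were at least 2-fold lower or higher than parental in all 4 EIR libraries. Among all genes with 10 counts in a library the shares were 6.21% and 7.7%, so nothing is read from 0 of 8. On the MT2A side the mean log2 ratios were -0.75 for BBS2 (25.9 kb from the cluster), 0.26 for OGFOD1 (129.5 kb) and 0.41 for NUDT21 (156.4 kb). On the MT1X side they were -0.22 for NUP93 (45.9 kb), -0.08 for HERPUD1 (247.9 kb) and -1.46 for CPNE2 (408 kb), the lowest of the 8. CPNE2 was also lower in clone 4 than in clone 3 (DESeq2 adjusted p = 0.000517).

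**Figure D4:**
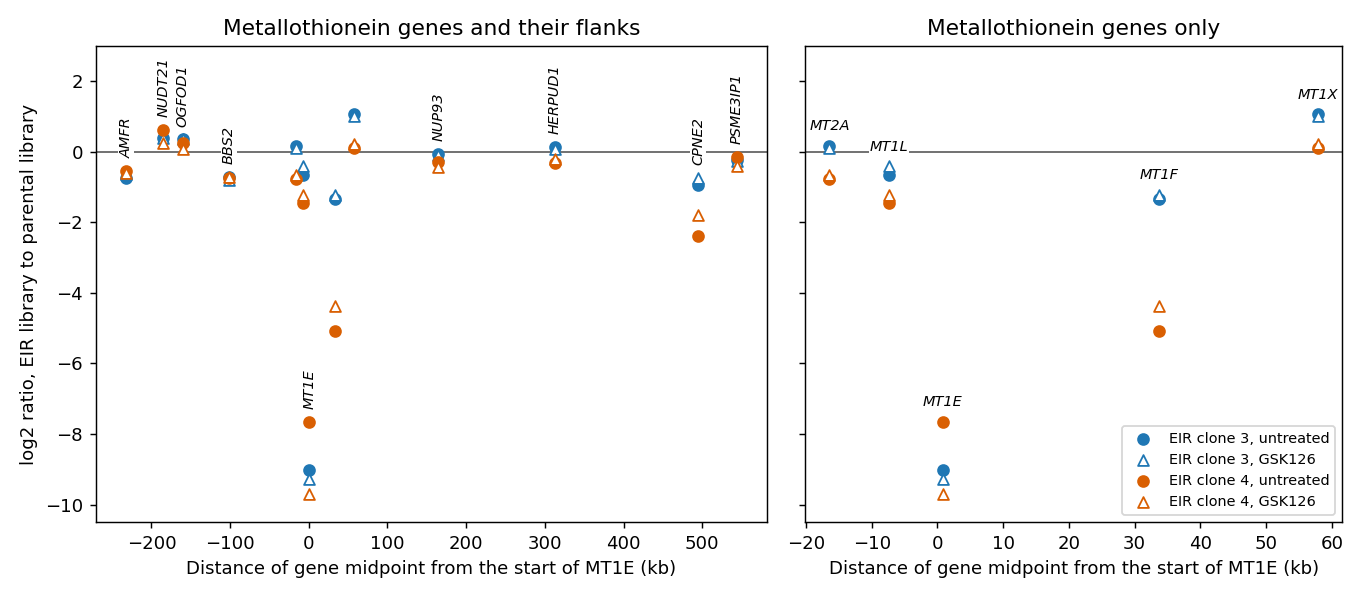
log2 ratio of each EIR library to the parental library (vertical axis) against the distance of the gene midpoint from the start of MT1E in kb (horizontal axis), with flanking genes (left) and for the metallothionein loci only (right). MT1E lies between -9.69 and -7.66, MT1F between -5.09 and -1.23, and the flanking genes within about the range of MT2A, MT1L and MT1X except CPNE2 in clone 4.

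The comparison of clone 4 with clone 3 did not choose the members and was tested with DESeq2 over the 4 EIR libraries, with treatment as a covariate. MT2A, MT1X and MT1F were lower in clone 4, and these were 3 of the 3 members that received an adjusted p. Over all 17708 genes with an adjusted p, 6.52% were called lower and 3.3% higher in clone 4. MT1F differed most, by -3.50 on the log2 scale (SE 0.65, DESeq2 adjusted p = 2.112e-06). The difference was -0.87 for MT2A (SE 0.16, DESeq2 adjusted p = 2.317e-06) and -0.89 for MT1X (SE 0.25, DESeq2 adjusted p = 0.00714). The pseudogene MT1L changed alongside, by -0.81 (SE 0.23, DESeq2 adjusted p = 0.00547). In each of these genes both clone 4 libraries lay below both clone 3 libraries.

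The MT1X and MT1L calls were lost without either clone 3 library, in fits of 3 libraries that also lack the treatment term. Without untreated clone 3 the difference was -0.86 for MT1X (DESeq2 adjusted p = 0.172) and -0.94 for MT1L (DESeq2 adjusted p = 0.053). Without treated clone 3 it was -0.94 for MT1X (DESeq2 adjusted p = 0.0972) and -0.70 for MT1L (DESeq2 adjusted p = 0.294), so the sizes changed little. MT1E differed by 0.54 between the clones (95% interval -3.42 to 4.49) and received no adjusted p, so a difference of either direction between the clones was not detectable at 2 to 10 counts. The p-values measure the spread between libraries of 1 clone each, not between independent clones.

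GSK126 treatment of EIR cells was tested on the same libraries, and no member changed past the threshold. DESeq2 called 0 of the 5 members with an adjusted p (MT1G, at 0 or 1 count, included), and over all genes 1 of 29847 (0.00335%), with 117 genes at an unadjusted p under 0.05, while edgeR called 0 genes with 81 at an unadjusted p under 0.05. Of the members, 0 had an unadjusted p under 0.05 in either tool. The log2 change was -0.00 for MT2A (95% interval -0.81 to 0.81), -0.01 for MT1X (-0.92 to 0.90), 0.14 for MT1F (-2.44 to 2.73) and -1.45 for MT1E (-4.90 to 1.99), each with a DESeq2 adjusted p of 0.9999. This fit leaves the difference between the clones in the spread. With the clone as replicate block, the intervals were -0.29 to 0.34 for MT2A, -0.48 to 0.51 for MT1X, -0.89 to 1.58 for MT1F and -5.27 to 2.66 for MT1E, and again 0 members were called, with a DESeq2 adjusted p of 0.9999 each.

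**Figure D5:**
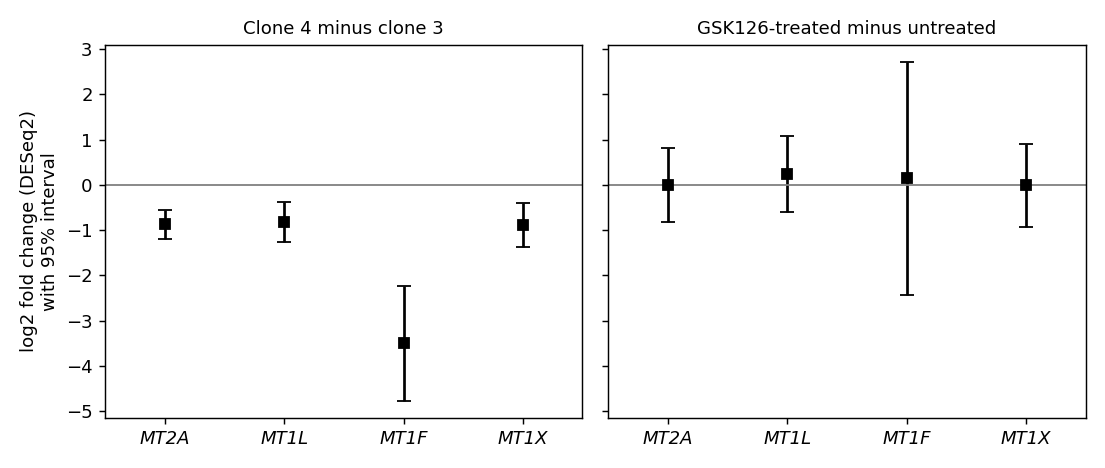
DESeq2 log2 fold changes (vertical axis) with 95% intervals (bars) of 3 metallothionein genes and the pseudogene MT1L for clone 4 minus clone 3 (left) and GSK126-treated minus untreated EIR cells (right). All 4 intervals lie below 0 between clones, with MT1F at -3.50, and all 4 include 0 for treatment.

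Genes that import, export or sense zinc were examined as a list of 25, since zinc governs the transcription of metallothioneins. Of the 22 with a row, 18 had at least 10 counts in a library, of which 1 was at least 2-fold higher than parental in all 4 EIR libraries and 0 were lower, shares near the 7.7% and 6.21% of all genes, with a median log2 ratio of 0.14 against -0.01 over all such genes. The gene above was SLC39A8, a zinc importer, which had 52.4 normalized counts in parental cells, 527 and 774 in untreated and treated clone 3 and 238 and 422 in untreated and treated clone 4. SLC30A4, a zinc exporter, had 16.1 in parental cells, 173 and 187 in clone 3 and 8.14 and 30.7 in clone 4. SLC30A2, likewise an exporter, had at most 6 counts in any library. SLC30A1, the plasma membrane zinc exporter and itself an MTF1 target, had 1186 normalized counts in the parental library against 2273 to 2929 in the EIR libraries, and it was picked after its values were seen. MTF1, named for its role and not by its values, had 544 in parental cells and 441 to 560 in EIR cells.

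Between the clones, 4 zinc genes of 18 with an adjusted p were lower in clone 4 (6.52% of all genes) and 0 were higher (3.3% of all genes). DESeq2 log2 fold changes were -3.41 for SLC30A4 (adjusted p = 2.2e-07), -1.01 for SLC39A8 (adjusted p = 0.00177), -0.62 for the importer SLC39A1 (adjusted p = 0.00433) and -0.54 for the importer SLC39A10 (adjusted p = 0.0278). edgeR called 3 zinc genes between the clones. For treatment, DESeq2 and edgeR each called 0 zinc genes, with 0 at an unadjusted p under 0.05.

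Of 8 copper handling genes, all with a row, 0 were at least 2-fold lower or higher than parental in all 4 EIR libraries, beside 6.21% and 7.7% of all genes, and their median log2 ratio was -0.29. The largest mean log2 ratios were -0.65 for the copper exporter ATP7B, -0.63 for the copper chaperone ATOX1 and 0.46 for SLC31A2, a copper transporter. Between the clones DESeq2 and edgeR called 0 copper genes, with 1 and 2 at an unadjusted p under 0.05, and for treatment both tools called 0, with 0 at an unadjusted p under 0.05.

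The glucocorticoid list holds response genes and the receptor gene NR3C1, and 9 of its genes had at least 10 counts in a library. Of these 9, 2 were at least 2-fold higher than parental in all 4 EIR libraries (7.7% of all such genes), NR3C1 included. Another 3 were lower by the same rule (6.21% of all such genes), and the median log2 ratio of the 9 was -0.77. NR3C1, the glucocorticoid receptor, had 296 normalized counts in parental cells, 2104 and 2103 in untreated and treated clone 3 and 1737 and 1793 in untreated and treated clone 4. The response gene SGK1, which encodes a kinase, was higher too, with a mean log2 ratio of 1.49. The response genes KLF9, TSC22D3 and FKBP5 were lower, with mean log2 ratios of -2.02, -1.89 and -1.85. FKBP5 is named outside the naming rule to complete the count of 3. Between the clones, against 6.52% of all genes with an adjusted p, SGK1 (-0.56, DESeq2 adjusted p = 0.0281) and KLF9 (-1.17, DESeq2 adjusted p = 0.0271) were lower in clone 4, and edgeR called the same number. For treatment both tools called 0, with 0 at an unadjusted p under 0.05. Whether zinc, copper or glucocorticoid supply plays a part in the metallothionein levels was not tested.

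The genes whose profile over the 5 libraries was most like that of MT1E were found by the Euclidean distance of log2 levels, each centred on its own mean, among the expressed genes. They were MEOX1 (distance 1.57), TAL1 (1.79), PCSK1 (2.18), PRTFDC1 (2.34) and IRAK3 (2.35). By this choice they share the MT1E profile. All had between 734 and 3583 normalized counts in parental cells and at most 13.8 in any EIR library. Each thus passed the expression filter through the parental library only. None lies in the metallothionein cluster. Of the other loci there, only MT2A, MT1L, MT1F and MT1X passed that filter, so nothing is read from this.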

How the data were processed

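Total RNA of 1 parental and 4 EIR libraries was sequenced in paired 75-base reads. The authors aligned reads to hg19 with Bowtie2 and deposited estimated counts (RSEM expected counts) per Ensembl gene, not normalized and already whole numbers. The annotation release and the use of strand in counting are not given in the sources used here. Groups and clones were read from the labels.

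Counts were matched to GENCODE release 44 on GRCh37 (29203 of 30476 identifiers, 95.8%), from which windows, exons and coordinates were taken. Two-sided Wald tests were run with DESeq2 1.42.0 under R 4.3.3 (Benjamini-Hochberg adjusted p under 0.05 over all genes), after a run of the procedure on simulated data. edgeR 4.0.16, TMM and total count scaling, a filter of 10 counts, GC centring, a pseudocount of 5, leaving out libraries and a replicate block by clone were alternatives. Libraries of the same clone deviated together (correlation 0.870 over 11479 genes), and the clone numbers in the labels pair them. With 1 parental library and 1 culture per clone and treatment, p-values measure the spread between these libraries only. The counting and Wilson intervals and the floor of 3 counts cover counting error only, with no spread between cultures. PCR reads without molecular identifiers are not independent molecules, so these intervals may be too narrow even for counting error. The members and gene lists were chosen with earlier results of these data known. Genes named beyond the members were other loci of the family, the 3 nearest flanking genes with a mean of 100 normalized counts on each side, list genes called in a test or among the 3 largest ratios, and the 5 genes most like MT1E. MTF1, SLC30A1 and FKBP5 were named outside this rule.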

Additional observations from a re-analysis of the deposited data

Results flagged for a closer look

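The clone 4 and clone 3 changes from parental cells differed from each other in 4 loci of the family, as tested by DESeq2 between the clones. The difference, clone 4 minus clone 3 on the log2 scale, was -0.87 for MT2A, -0.89 for MT1X, -3.50 for MT1F and -0.81 for MT1L. MT2A and MT1F kept their calls in all 9 alternatives, while MT1X and MT1L lost theirs without either clone 3 library. No cause was tested. By Dixon's ratio of the gap to the range among the 4 EIR libraries, 1 library stood apart for MT1G (GSK126-treated clone 4) and 1 for MT1B (GSK126-treated clone 3), with a ratio of 1.0 in both, and each rests on 1 count. When 1 library holds the only count among the 4 EIR libraries, the ratio is 1.0 by construction. The ratio therefore cannot tell whether these libraries differ, and no conclusion is drawn from it.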

How the results depend on the processing

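The genes at least 2-fold lower than parental in all 4 EIR libraries were MT1A, MT1E and MT1F under every scaling, pseudocount, GC centring and left-out library tried. The MT1E log2 ratio was -7.86 with a pseudocount of 5, the MT1E share in parental cells was 12.97% when pseudogenes entered the sum, and 16.35% of MT1E windows were shared when 2 mismatches were allowed. The number of genes called between clones was 1738 in DESeq2, 2531 in edgeR and 2541 in DESeq2 without the treatment term, the full fit to which the 831 to 2800 with a library left out compare. The number called for treatment was 1 with DESeq2, 0 with edgeR, 4 with the replicate block and 1 to 25 when a library was left out, of which 25 without untreated clone 3. No member was called for treatment in any alternative, the replicate block included. The edgeR fit with the block and the setting of counts under 3 to 3 were chosen after the data were seen, and the cause of these shifts was not tested. With 2 to 10 MT1E counts in each EIR library, neither the clones nor the treatments could be ranked for it, and the lack of a second parental library limits every ratio to parental cells.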
